A study of Mus musculus with 6 samples.

Results

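Fatty acid oxidation turns stored and imported fat into acetyl-CoA and reduced cofactors, and ketone body use feeds the same acetyl-CoA pool. This set holds the enzymes, carriers and regulators of these routes, 33 genes named by symbol and found through their Ensembl identifiers. All 33 had a row among the 16289 genes of the count table, and all were tested among 16259 genes. They fall into 7 activation and carnitine shuttle genes, 10 of the mitochondrial spiral, 3 auxiliary enzymes for unsaturated chains, 3 of electron transfer, 3 peroxisomal enzymes, 5 regulators and thioester enzymes, and 2 of ketone body use.

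The genes were measured by RNA-seq in tibialis anterior, a shin muscle, from male C57BL/6J mice aged 12 weeks, 14 days after an intramuscular injection of glycerol. Glycerol destroys fibres, and the muscle regenerates with deposits of fat. The groups were glycerol with melatonin, the pineal hormone (glycerol+melatonin, 3 samples), and glycerol with a control treatment (glycerol, 3 samples). Both groups carry the injury, and no uninjured muscle was analysed here. The samples are labelled as biological replicates. Tibialis anterior is the labelled tissue, but the text on RNA extraction speaks of a back muscle. How melatonin was dosed is not stated in the labels.

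In this pathway a long-chain fatty acid is first joined to coenzyme A, then passed over the inner mitochondrial membrane as a carnitine ester. The spiral shortens it by repeated dehydrogenation, hydration, a second oxidation and thiolysis, and electron-transferring flavoprotein hands the electrons of the first step to the respiratory chain. Peroxisomes run a related pathway for very long and branched chains. Skeletal muscle burns much fatty acid at rest and in endurance exercise, and many of these genes are known targets of the nuclear receptors PPARα and PPARδ.

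Total counts were between 39310361 and 48879045 per library, and the 33 genes took 0.397% to 0.578% of the counts of the glycerol+melatonin libraries and 0.546% to 0.653% of those of the glycerol libraries. All 12 skeletal muscle markers were tested and were abundant, with a summed level of 101255 to 154126 CPM in glycerol+melatonin and 138081 to 162219 CPM in glycerol (CPM, the count over the library total scaled to one standard size, with TMM factors). None of 5 liver markers was among the tested genes. Glycerol+melatonin replicate 3 had the lowest level of the muscle creatine kinase gene Ckm, 12695.5 CPM, against 22455 and 17677 CPM in replicates 1 and 2 of that group. Glycerol muscle had 21113, 23341 and 21370 CPM of Ckm in replicates 1, 2 and 3.

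Start site sequences of 26 of the 33 genes were matched in RefSeq on build GRCm38.p6, as 27 windows from 250 bases before to 50 bases after a start. The windows of the genes on which the results turn are shown in lower case. Acsl1, whose values lay furthest apart between the groups, has 2 such windows, both on the plus strand. The upstream window is chr8:46470787-46471086, and the downstream window is chr8:46490716-46491015. Gene counts cannot say which start was used. Pdk4, the most abundant of the genes, has its window on the minus strand at chr6:5496229-5496528.
Acsl1, upstream window: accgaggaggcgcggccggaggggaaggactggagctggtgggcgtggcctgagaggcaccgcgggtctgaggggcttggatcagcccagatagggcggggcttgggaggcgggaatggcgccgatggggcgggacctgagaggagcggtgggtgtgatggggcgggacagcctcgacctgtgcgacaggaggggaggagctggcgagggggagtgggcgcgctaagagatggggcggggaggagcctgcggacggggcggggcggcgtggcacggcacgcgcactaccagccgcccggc
Acsl1, downstream window: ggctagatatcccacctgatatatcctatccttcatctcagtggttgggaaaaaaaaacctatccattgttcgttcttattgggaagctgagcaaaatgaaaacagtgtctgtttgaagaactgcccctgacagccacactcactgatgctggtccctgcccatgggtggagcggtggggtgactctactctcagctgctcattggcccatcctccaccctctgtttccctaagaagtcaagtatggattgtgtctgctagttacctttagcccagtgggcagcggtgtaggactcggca
Pdk4: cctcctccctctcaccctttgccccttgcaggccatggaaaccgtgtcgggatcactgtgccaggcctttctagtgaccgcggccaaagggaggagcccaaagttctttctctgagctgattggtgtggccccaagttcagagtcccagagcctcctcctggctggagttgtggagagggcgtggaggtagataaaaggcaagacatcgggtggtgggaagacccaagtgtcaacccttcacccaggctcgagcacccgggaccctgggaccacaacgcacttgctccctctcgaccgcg

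The direct repeat read by PPAR receptors, 2 copies of AGGTCA with 1 base of any kind between them, was searched on both strands with up to 2 mismatches. It was found in 4 of the 27 windows, those of Ucp3, Slc25a20, Etfa and Echs1, and in 3.86% of the 32851 windows of all genes. No match says only that these letters are not in the window. The window of Ucp3 (chr7:100472741-100473040, plus strand) held the match in capitals, 51 bases before the start.
Ucp3: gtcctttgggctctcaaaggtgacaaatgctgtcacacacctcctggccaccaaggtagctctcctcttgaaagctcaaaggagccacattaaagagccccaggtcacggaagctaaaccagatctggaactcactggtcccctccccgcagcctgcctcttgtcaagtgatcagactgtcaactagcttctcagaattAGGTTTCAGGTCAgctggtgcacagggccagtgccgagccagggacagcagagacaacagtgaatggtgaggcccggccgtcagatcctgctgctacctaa

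Hadha and Hadhb, the subunits of the mitochondrial trifunctional protein, start head to head on chromosome 5. The Hadhb window (chr5:30155003-30155302, plus strand) shares 228 bases, shown in capitals, with the Hadha window on the opposite strand.
Hadhb: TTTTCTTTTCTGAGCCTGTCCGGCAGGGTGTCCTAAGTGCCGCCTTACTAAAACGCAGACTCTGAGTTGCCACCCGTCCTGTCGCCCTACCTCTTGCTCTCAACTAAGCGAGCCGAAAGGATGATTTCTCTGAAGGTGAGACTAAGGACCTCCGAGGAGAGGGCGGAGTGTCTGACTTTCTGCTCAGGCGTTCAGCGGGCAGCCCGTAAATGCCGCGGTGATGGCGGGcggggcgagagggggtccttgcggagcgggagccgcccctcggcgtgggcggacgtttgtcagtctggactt

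Of the 33 genes, 26 had a log2 fold change below 0 (glycerol+melatonin over glycerol) and 7 above 0, with a median of -0.33. Over all genes tested the median was 0.02 and 48.3% lay below 0. None of the 33 passed edgeR's quasi-likelihood test at a Benjamini-Hochberg adjusted p under 0.05, where 12 of all genes (0.0738%) did, and none passed at an adjusted p under 0.1, where 0.363% of all genes did. At an unadjusted p under 0.05, 6 were lower and 0 higher, against 9.39% lower and 10.1% higher among all genes. Without glycerol+melatonin replicate 1 this count was 16, and without any other sample it was 3 to 5. Shares over all genes in those fits are not reported here, so these counts are not read as a result about the set. Without that replicate, 25 of 16274 genes passed edgeR at an adjusted p under 0.05. DESeq2 called 2 of the 33, Acsl1 and Pdk4, both lower, against 4.58% of all genes in either direction and 2.56% as lower, and limma-voom with sample weights called Acsl1, against 1.22% of all genes. For 8 genes the groups did not overlap, each lower in glycerol+melatonin, where 12.5% of all genes were so separated as lower. In bulk tissue, fewer cells of a type and less RNA per cell cannot be told apart.

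**Figure D1:**
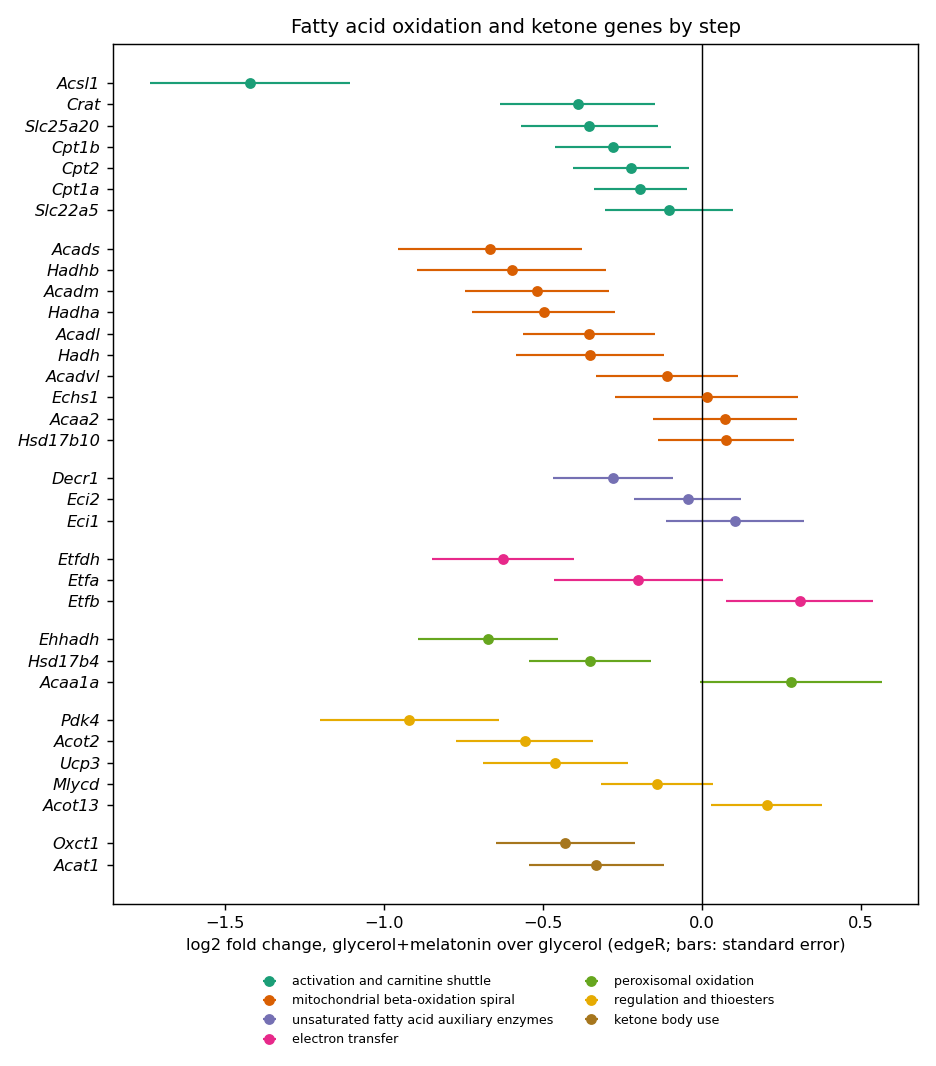
Log2 fold change of each of the 33 genes, glycerol+melatonin over glycerol, with its standard error from edgeR (n = 3 per group), grouped and coloured by step. Acsl1 lies furthest below 0 at -1.42 and Etfb furthest above at 0.31, and no gene passed at an adjusted p under 0.05.

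Acsl1 encodes a long-chain acyl-CoA synthetase, which activates fatty acids at the outer mitochondrial membrane and endoplasmic reticulum. Acsl1 (ENSMUSG00000018796, GRCm38 chromosome 8 from 46471037 to 46536051, plus strand) stood at 119, 75.8 and 50.2 CPM in glycerol+melatonin and at 242, 248 and 165 CPM in glycerol. Every glycerol+melatonin sample was below every glycerol sample. The means were 81.6 ± 34.7 and 218 ± 46.3 CPM (SD, n = 3 each), a log2 fold change of -1.42 ± 0.31 (SE, edgeR adjusted p = 0.132). DESeq2 gave an adjusted p of 0.000737 and limma-voom 0.0456, within a range of 0.000737 to 0.420 over the alternatives tried. Leaving out each sample in turn gave log2 fold changes between -1.79 and -1.16 and edgeR adjusted p between 0.0629 and 0.420.

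The other long-chain synthetases differed less. Acsl4, which prefers arachidonic acid, was at 23.5, 21.9 and 17.5 CPM in glycerol+melatonin and 28.8, 28.8 and 24.8 CPM in glycerol (-0.39 ± 0.17, edgeR adjusted p = 0.251). Acsl3 was at -0.23 ± 0.18, Acsl6 at -0.13 ± 0.16 and Acsl5 at 0.14 ± 0.20 on the log2 scale. Per transcript length, Acsl1 made up 52.4%, 39.003% and 33.5% of the summed level of these 5 genes in glycerol+melatonin and 66.5%, 66.5% and 58.8% in glycerol. The groups did not overlap in this share, which was computed after the values were seen and was not tested. The fatty acid transport protein Slc27a1, also an acyl-CoA synthetase, was at 55.2, 40.7 and 40.7 CPM in glycerol+melatonin and 65.0, 59.0 and 63.8 CPM in glycerol (-0.46 ± 0.17, edgeR adjusted p = 0.200).

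The carnitine shuttle showed smaller differences, all 6 of its genes below 0 and none past the test. Carnitine palmitoyltransferase 1 is the gate of mitochondrial entry, and its muscle form Cpt1b was at 251, 223 and 194 CPM in glycerol+melatonin and 292, 295 and 224 CPM in glycerol (-0.28 ± 0.18, edgeR adjusted p = 0.417). The liver form Cpt1a was at 28.4, 32.0 and 32.0 CPM in glycerol+melatonin and 34.7, 31.9 and 39.02 CPM in glycerol (-0.19 ± 0.15, edgeR adjusted p = 0.480). Both forms thus had overlapping groups. Per transcript length Cpt1b was 9.06 to 13.2 times the level of Cpt1a in glycerol+melatonin and 8.55 to 13.8 times in glycerol, so the muscle form dominated in all 6 samples.

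Cpt2, the inner membrane transferase, was at -0.22 ± 0.18, the carnitine carrier Slc25a20 at -0.35 ± 0.22 and the cell surface carnitine transporter Slc22a5 at -0.10 ± 0.20 on the log2 scale. Carnitine acetyltransferase Crat, which buffers acetyl-CoA, was at -0.39 ± 0.24. Slc25a20 stood at 75.9, 58.2 and 41.4 CPM in glycerol+melatonin, against 76.3, 72.9 and 75.0 CPM in glycerol. Its glycerol samples lay close together, and replicate 1 of glycerol+melatonin lay among them. Malonyl-CoA blocks Cpt1: the gene of malonyl-CoA decarboxylase, Mlycd, was at -0.14 ± 0.18 and that of the mitochondrial acetyl-CoA carboxylase, Acacb, at -0.40 ± 0.20 (edgeR adjusted p = 0.313).

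Within the mitochondrial spiral, 7 of 10 genes were below 0, with a median of -0.35, and 3 were lower with groups that did not overlap. Among all genes, 48.3% lay below 0 and 12.5% were separate as lower. The acyl-CoA dehydrogenases make the first oxidation, each for a range of chain lengths. Acads, for short chains, was at 60.0, 47.6 and 25.6 CPM in glycerol+melatonin and 62.3, 65.6 and 83.4 CPM in glycerol (-0.67 ± 0.29, edgeR adjusted p = 0.255). Acadm, for medium chains, was at 178, 130.2 and 95.0 CPM in glycerol+melatonin and 188, 199 and 189.6 CPM in glycerol (-0.52 ± 0.23, edgeR adjusted p = 0.257). In both genes the groups did not overlap, and glycerol+melatonin replicate 1 was close to the glycerol samples. Acadl, for long chains, was at -0.35 ± 0.21 and Acadvl, for very long chains, at -0.11 ± 0.22, both with overlapping groups.

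The trifunctional protein runs the remaining steps for long chains, and its subunit genes differed by similar amounts. Hadha was at 335, 222 and 190.5 CPM in glycerol+melatonin and 362, 341 and 353 CPM in glycerol (-0.50 ± 0.22, edgeR adjusted p = 0.267). Hadhb, transcribed from the other side of the shared start region shown above, was at 202, 147 and 83.1 CPM in glycerol+melatonin and 185, 225 and 243 CPM in glycerol (-0.60 ± 0.30, edgeR adjusted p = 0.306). The groups were separate for Hadha and overlapped for Hadhb. The ratio of Hadhb to Hadha was 0.436 to 0.659 in glycerol+melatonin and 0.512 to 0.688 in glycerol.

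The enzymes for shorter chains were on either side of 0. The short-chain hydroxyacyl-CoA dehydrogenase Hadh was at -0.35 ± 0.23, the hydratase Echs1 at 0.02 ± 0.29, the thiolase Acaa2 at 0.07 ± 0.23 and Hsd17b10, a dehydrogenase of branched-chain and steroid substrates that also serves in mitochondrial RNase P, at 0.08 ± 0.21 on the log2 scale. Of the auxiliary enzymes for unsaturated chains, the isomerases Eci1 and Eci2 were at 0.10 ± 0.22 and -0.04 ± 0.17 and the reductase Decr1 at -0.28 ± 0.19. Decr1 stood at 86.0, 62.4 and 54.3 CPM in glycerol+melatonin, against 83.0, 78.6 and 84.2 CPM in glycerol, with replicate 1 of the first group above all the others.

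The electron transfer genes split. Etfdh, which passes electrons from the flavoprotein to ubiquinone, was at 108, 77.1 and 57.8 CPM in glycerol+melatonin and 123, 123 and 128 CPM in glycerol, with no overlap (-0.62 ± 0.22, edgeR adjusted p = 0.198). Etfa, the larger flavoprotein subunit, was at 155, 137 and 74.7 CPM in glycerol+melatonin and 125, 135 and 161 CPM in glycerol (-0.20 ± 0.27, edgeR adjusted p = 0.706). Its partner subunit Etfb was at 144, 128 and 96.0 CPM in glycerol+melatonin and 90.4, 78.4 and 128 CPM in glycerol (0.31 ± 0.23, edgeR adjusted p = 0.475). Both subunit genes had overlapping groups. Their ratio, Etfb over Etfa, was 0.929, 0.932 and 1.29 in glycerol+melatonin and 0.725, 0.581 and 0.795 in glycerol, without overlap. Etfb has a longest transcript of 893 bases and Etfa of 1392 bases.

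Of the peroxisomal enzymes, the bifunctional hydratase and dehydrogenase Ehhadh was the least abundant gene of the set. Ehhadh stood at 2.47, 3.04 and 3.23 CPM in glycerol+melatonin and 3.83, 5.09 and 5.02 CPM in glycerol, without overlap (-0.67 ± 0.22, edgeR adjusted p = 0.185). These rested on 108, 165 and 152 counts in glycerol+melatonin and 155, 221 and 205 counts in glycerol. Hsd17b4, its counterpart for branched chains, was at -0.35 ± 0.19 and the thiolase Acaa1a at 0.28 ± 0.29 on the log2 scale. Acaa1a stood at 69.9, 76.3 and 40.4 CPM in glycerol+melatonin, against 41.1, 42.9 and 69.6 CPM in glycerol, and both groups spanned much the same range. Summed with its near copy Acaa1b, Acaa1a was at 0.30 ± 0.29. Acaa1b alone was at 0.80 ± 0.39 (edgeR adjusted p = 0.301).

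Peroxisomal genes outside the set leaned the same way as Ehhadh. Of 24 tested, 18 were below 0 (median -0.18), 0 passed by edgeR, 7 were lower and 0 higher at an unadjusted p under 0.05, and DESeq2 called 3 lower. Over all genes, 48.3% lay below 0, 9.39% were lower at an unadjusted edgeR p under 0.05, and DESeq2 called 2.56% lower. The import receptor gene Pex19 was at 65.2, 81.5 and 74.2 CPM in glycerol+melatonin and 123, 116 and 123 CPM in glycerol (-0.71 ± 0.15, edgeR adjusted p = 0.125). Abcd2, a transporter of very long acyl-CoA, was at -0.88 ± 0.20 (edgeR adjusted p = 0.134) and catalase Cat at -0.72 ± 0.18 (edgeR adjusted p = 0.140). For all 3 of these genes the groups did not overlap.

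Among the regulators, Pdk4 is the kinase that switches off pyruvate dehydrogenase and so spares glucose when fat is burned. Pdk4 (ENSMUSG00000019577, GRCm38 chromosome 6 from 5483351 to 5496309, minus strand) was at 1329, 749.6 and 689 CPM in glycerol+melatonin and 1644, 2002 and 1587 CPM in glycerol. Every glycerol+melatonin sample was lower than every glycerol sample, replicate 1 by the smallest margin. The log2 fold change was -0.92 ± 0.28 (edgeR adjusted p = 0.173). DESeq2 gave an adjusted p of 0.0245 and limma-voom 0.0653, within a range of 0.0245 to 0.469 over the alternatives. Pdk4 alone supplied 22.2%, 16.9% and 19.8% of the CPM of the set in glycerol+melatonin and 26.2%, 30.1% and 25.3% in glycerol.

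The mitochondrial uncoupling protein gene Ucp3, known to follow fatty acid supply in muscle, was at 257, 149 and 203 CPM in glycerol+melatonin and 291, 314 and 234 CPM in glycerol (-0.46 ± 0.23, edgeR adjusted p = 0.302). The mitochondrial thioesterase Acot2, which frees fatty acids from coenzyme A, was at 15.4, 11.1 and 9.49 CPM in glycerol+melatonin and 15.4, 20.3 and 17.3 CPM in glycerol (-0.56 ± 0.22, edgeR adjusted p = 0.219). Both genes had overlapping groups. Acot2 has a near copy, cytosolic Acot1, with 24 to 68 counts in glycerol+melatonin and 48 to 110 in glycerol, and their sum was at -0.60 ± 0.23. The smaller thioesterase Acot13 was at 0.21 ± 0.17.

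**Figure D2:**
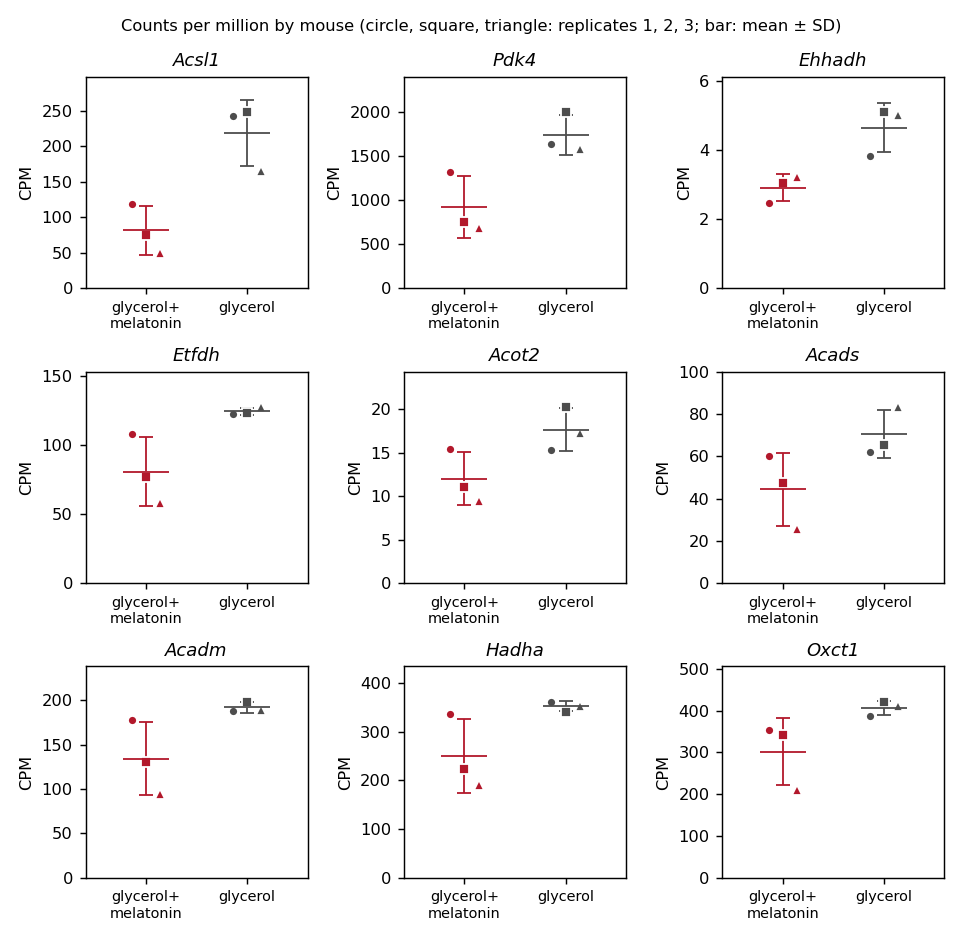
CPM of 9 genes in each sample, with glycerol+melatonin left of glycerol, symbols for replicates 1, 2 and 3, and bars for the mean and SD of the 3 samples of a group. The groups are separate for 8 of the genes and meet for Acot2, and glycerol+melatonin replicate 3 is the lowest sample in 8 of the 9 panels, the exception being Ehhadh.

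Ketone body use depends on Oxct1, the transferase that activates acetoacetate, and Acat1, the mitochondrial thiolase that splits it. Oxct1 was at 354, 341 and 211 CPM in glycerol+melatonin and 388, 421 and 411 CPM in glycerol, without overlap (-0.43 ± 0.22, edgeR adjusted p = 0.316). Acat1 was at 170.4, 123 and 99.8 CPM in glycerol+melatonin and 171, 174 and 149 CPM in glycerol, with overlap (-0.33 ± 0.21, edgeR adjusted p = 0.410). Among other ketone genes, the hydroxybutyrate dehydrogenase Bdh1 was scarce, at 1.90, 3.40 and 1.11 CPM in glycerol+melatonin and 3.80, 6.10 and 3.43 CPM in glycerol (-1.06 ± 0.41, edgeR adjusted p = 0.221). Of 9 such genes tested, 6 were below 0 and 0 passed.

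Levels per transcript length ordered the genes much alike in both groups. In CPM per kilobase of the longest transcript, Pdk4 led with 265 in glycerol+melatonin and 501 in glycerol. Behind it, Etfb (137), Acadl (120), Acadvl (117) and Acaa2 (107) were the highest in glycerol+melatonin, and Acadl (153), Acadvl (126), Oxct1 (115) and Ucp3 (114) in glycerol. Ehhadh was last with 0.978 in glycerol+melatonin and 1.56 in glycerol, and Slc22a5 next to last with 4.06 in glycerol+melatonin and 4.37 in glycerol. Of the 32 neighbouring pairs in this order, the ranges over the 3 samples overlapped for 29 in glycerol+melatonin and 21 in glycerol, and Pdk4 was separate from the next gene in both groups. Longest transcripts can understate genes such as Echs1, whose longest annotated form has 4088 bases.

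Samples of the melatonin group were unlike each other across these genes. Glycerol+melatonin replicate 3 had the lowest CPM of the 6 samples for 26 of the 33 genes, where it was lowest for 23.7% of all genes. It lay below every glycerol sample for 28 of the 33 (33.1% of all genes), replicate 2 for 21 (31.3%) and replicate 1 for 10 (28.3%). As a mean of centred log2 CPM, the 33 genes stood at 0.15, -0.12 and -0.53 in glycerol+melatonin and 0.09, 0.16 and 0.24 in glycerol. Replicate 1 of the melatonin group was thus inside the glycerol range. Without replicate 3 of glycerol+melatonin, 22 of 33 genes were below 0 and the median was -0.16, and without its replicate 1 the figures were 28 and -0.49.

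By step, the activation and shuttle genes were at 0.01, -0.18 and -0.49 in glycerol+melatonin and 0.28, 0.24 and 0.15 in glycerol, and the groups were separate. Ketone body genes were separate by a narrow margin, at 0.13, -0.13 and -0.63 in glycerol+melatonin and 0.20, 0.27 and 0.14 in glycerol. The spiral genes (0.24, -0.09 and -0.65 in glycerol+melatonin, 0.05, 0.12 and 0.33 in glycerol) overlapped, as did the auxiliary, electron transfer, peroxisomal and regulator groups. Differences between steps were not tested.

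**Figure D3:**
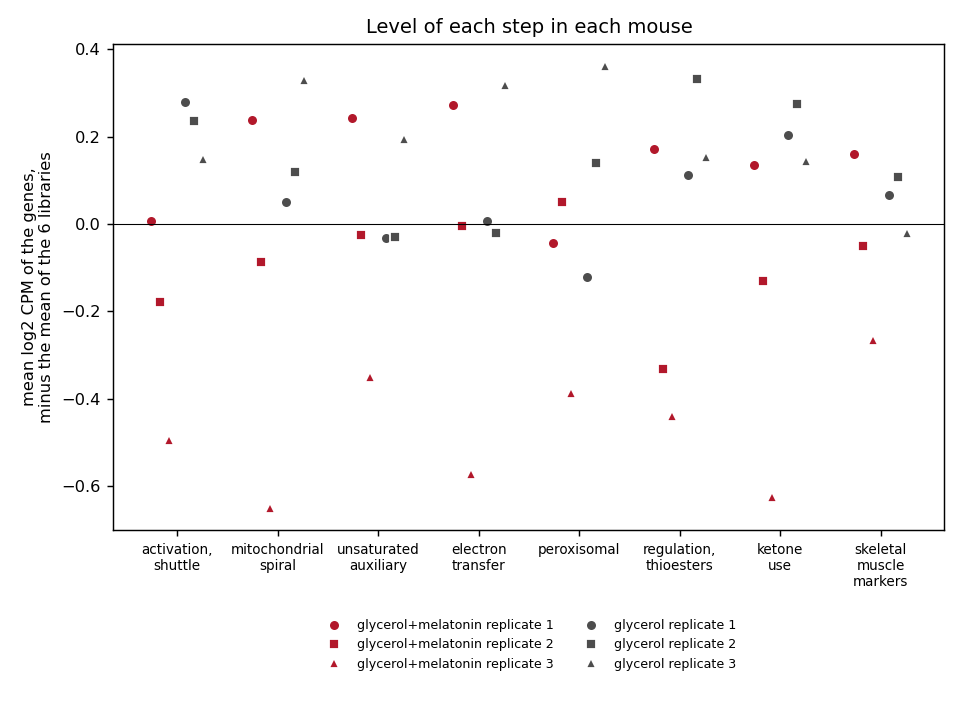
Mean of centred log2 CPM over the genes of each step in each sample, glycerol+melatonin left of glycerol within each step, with the 12 skeletal muscle markers at the right for comparison. Glycerol+melatonin replicate 3 is the lowest sample in every step and in the muscle markers, and replicate 1 of that group lies above 0 in all steps except the peroxisomal one.

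The medians of fast and slow fibre markers lay on opposite sides of 0. The 14 fast glycolytic fibre genes were at 0.20, -0.13 and -0.45 in glycerol+melatonin and 0.09, 0.24 and 0.06 in glycerol, with a median log2 fold change of -0.27 and 9 of 14 below 0. Glycerol+melatonin replicate 3 was the lowest sample here too. Their summed level was 91532.9 to 138898 CPM in glycerol+melatonin and 123307 to 149637 CPM in glycerol. The 10 slow and oxidative fibre genes were at 0.23, 0.31 and 0.13 in glycerol+melatonin and 0.52, -1.10 and -0.09 in glycerol, where replicate 2 was the lowest of all samples. Their median log2 fold change was 0.44, with 6 of 10 above 0. At an unadjusted p under 0.05 there were 3 higher and 0 lower, and 3 were separate as higher. Among all genes, 10.1% were higher and 9.39% lower at that unadjusted p, and 13.6% were separate as higher. None of these 10 genes passed by edgeR. With an offset for transcript length, the slow list had a median of 0.16, with 4 of 10 below 0. The fast list then had a median of -0.32, with 14 of 14 below 0. The fast myosin gene Myh4 was at -0.58 ± 0.31 (edgeR adjusted p = 0.343) and the slow myosin gene Myh7 at -0.75 ± 0.98 (edgeR adjusted p = 0.702), the lowest value of the slow list. The slow light chain gene Myl3 had the highest, 0.86 ± 0.27 (edgeR adjusted p = 0.179). The part of fibre content in the gene levels was not tested.

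Against Ckm, the groups were separate for the whole set and overlapped without Pdk4 and Acsl1, which were left out after the values were seen. The whole set summed to 26.6%, 25.2% and 27.4% of the CPM of Ckm in glycerol+melatonin and 29.7%, 28.5% and 29.4% in glycerol. The set without Pdk4 and Acsl1 summed to 20.2%, 20.5% and 21.6% of the CPM of Ckm in glycerol+melatonin and 20.8%, 18.9% and 21.2% in glycerol. Acsl1 remained separate, at 0.529%, 0.429% and 0.395% of Ckm in glycerol+melatonin and 1.15%, 1.06% and 0.773% in glycerol, and so did Pdk4, at 5.92%, 4.24% and 5.43% in glycerol+melatonin and 7.79%, 8.58% and 7.43% in glycerol. Relative to Ckm, 5 of the 33 genes were separate as lower (Acsl1, Acads, Acadm, Etfdh and Pdk4; 2.63% of all genes) and 5 as higher (Cpt2, Eci1, Etfb, Acot13 and Mlycd; 20.5% of all genes). With libraries scaled to Ckm, which moved the median of all genes to 0.41, the set had a median of -0.0096 and 17 of 33 below 0. Ckm itself differed by -0.32 ± 0.29 (edgeR adjusted p = 0.567), and its use as a scale was chosen after the data were seen.

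**Figure D4:**
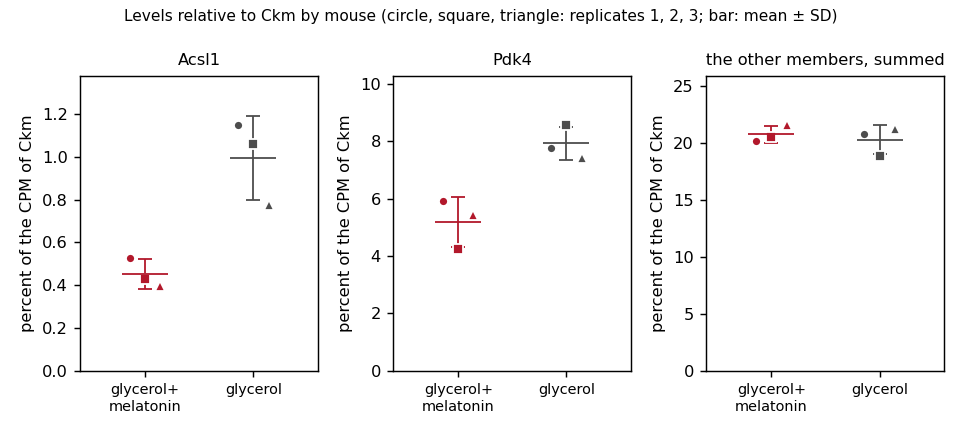
CPM of Acsl1, of Pdk4 and of the remaining genes summed, each as a percent of the CPM of Ckm in the same sample, glycerol+melatonin left of glycerol, with bars for the mean and SD (n = 3 per group). Acsl1 and Pdk4 are separate between the groups, while the sum of the others is 20.2% to 21.6% in glycerol+melatonin and 18.9% to 21.2% in glycerol.

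Fat cells also hold Acsl1. Of 11 fat cell markers listed, 9 were tested and 7 of these were below 0 with 0 passing, at a median log2 fold change of -0.51, or -0.60 with the length offset. Their mean levels were 0.78, -0.29 and -0.60 in glycerol+melatonin and -0.31, -0.89 and 1.302 in glycerol. Within glycerol+melatonin, replicate 1 was highest and replicate 3 lowest, as for the 33 genes, and the groups overlapped. The markers Lep and Ucp1 were not among the tested genes. Adipoq, the gene of the hormone adiponectin, stood at 18.4, 9.65 and 6.02 CPM in glycerol+melatonin, against 10.6, 5.18 and 37.8 CPM in glycerol. Plin1, which coats fat droplets, was at -0.20 ± 0.47 (edgeR adjusted p = 0.844). The summed level of the 9 genes was 435 to 766 CPM in glycerol+melatonin and 524 to 705 CPM in glycerol. Glycerol replicate 3, the highest for Adipoq, was the lowest glycerol sample for Acsl1. Macrophage markers summed to 537 to 764 CPM in glycerol+melatonin and 556 to 785 CPM in glycerol, and endothelial markers to 862 to 1428 CPM in glycerol+melatonin and 900.1 to 1083 CPM in glycerol. The summed level of 10 fibro-adipogenic progenitor markers was lower in each glycerol+melatonin sample (5291 to 6312 CPM) than in each glycerol sample (7211 to 8255 CPM). Of these 10 genes, 8 were below 0 and 2 above (median -0.65), with 0 passing by edgeR. The groups were separate as lower for 4 of the 10, and for 12.5% of all genes. The part of these cells in the results was not tested.

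Transcript length went with the fold change. Of the 7 genes with a longest transcript under 2000 bases, 5 were above 0 (median 0.08), and of the 26 longer ones 2 were above 0 (median -0.35). The Spearman correlation of length with log2 fold change was -0.41 over the 33 genes and -0.32 over 16230 genes, given as a description, since all rest on the same 6 libraries. With an offset for transcript length fitted in each library, 30 of the 33 were below 0, against 47.5% of all genes, and the median was -0.28. Acot13, Eci1, Hsd17b10 and Acaa2 then lay below 0 and Etfb was at 0.04 ± 0.20, while Acsl1 was at -1.26 ± 0.31 and Pdk4 at -0.85 ± 0.28, with no gene of the set passing.

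**Figure D5:**
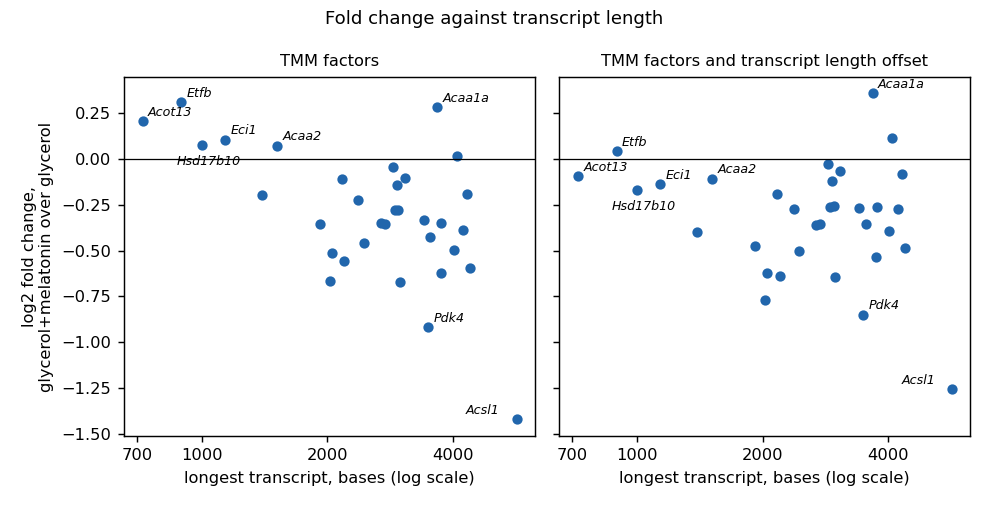
Log2 fold change of the 33 genes against the length of the longest annotated transcript (log scale), with TMM factors alone at the left and with an added length offset at the right. At the left 5 of the 7 genes under 2000 bases lie above 0, and at the right 3 of the 33 genes do.

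Scaling also set part of the count. By library size alone, the median of all genes moved to 0.23 and 29.4% of them were below 0, while 21 of the 33 were below 0 with a median of -0.13. Cpt1a, Slc22a5, Acadvl, Eci2 and Mlycd were above 0 on that scale. Of the 33 genes, 11 have exon bases in common with a neighbouring gene model, and the labels do not state whether counting used strand. Cpt1b shares 2744 of its 3372 exon bases with the model Gm44502 on the same strand, and Acadvl shares 1151 of 2686 with Dvl2 on the other strand, where Dvl2 averaged 12.9 CPM in glycerol+melatonin and 9.48 CPM in glycerol, far below Acadvl. Etfb, the other gene with a partner on the same strand, shares 617 of its 1164 exon bases with the model Gm45233. That model had 19 to 50 counts in glycerol+melatonin and 24 to 89 in glycerol. Summed with it, Etfb was at 0.30 ± 0.23 on the log2 scale. For these genes the split of reads is uncertain.

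Regulators of the pathway lay mostly below 0, with 19 of 25 there and a median of -0.43, and 0 passed by edgeR. At an unadjusted p under 0.05, 7 were lower and 0 higher, 4 were separate as lower, and DESeq2 called 1 lower. Among all genes, 48.3% lay below 0, and 9.39% were lower and 10.1% higher at that unadjusted p. Of all genes, 12.5% were separate as lower and DESeq2 called 2.56% lower. The receptor gene Ppara was scarce, at 1.119, 1.13 and 0.511 CPM in glycerol+melatonin and 3.09, 3.73 and 0.931 CPM in glycerol (-1.49 ± 0.52, edgeR adjusted p = 0.194). Its relative Ppard, known for its role in muscle, was at 38.6, 32.1 and 38.2 CPM in glycerol+melatonin and 52.6, 51.0 and 43.5 CPM in glycerol, without overlap (-0.43 ± 0.15, edgeR adjusted p = 0.192). The coactivator Ppargc1a was at 81.3, 81.5 and 24.6 CPM in glycerol+melatonin and 93.0, 181 and 108 CPM in glycerol (-1.03 ± 0.44, edgeR adjusted p = 0.251). Prkaa2, a catalytic subunit of the energy sensor AMPK, was at -0.92 ± 0.30 (edgeR adjusted p = 0.183). After the length offset, 23 of the 25 were below 0.

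Genes of fatty acid uptake and other PPAR targets were mixed, 10 of 15 below 0 with a median of -0.09 and 0 passing. The fatty acid translocase Cd36 was at 162, 208 and 169 CPM in glycerol+melatonin and 221, 275 and 287 CPM in glycerol, without overlap (-0.54 ± 0.18, edgeR adjusted p = 0.187). Fabp3, the fatty acid binding protein of heart and muscle, was at 0.13 ± 0.25.

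Around Pdk4, 12 of 13 genes of the pyruvate dehydrogenase complex, its kinases, phosphatases and the pyruvate carrier were below 0, with a median of -0.53 and 0 passing by edgeR. Pdpr, a regulatory subunit of the phosphatase that turns the complex on, was at 8.31, 5.20 and 4.13 CPM in glycerol+melatonin and 37.1, 38.9 and 17.5 CPM in glycerol (-2.41 ± 0.37, edgeR adjusted p = 0.0788). The catalytic phosphatase Pdp1 was at -0.67 ± 0.16 (edgeR adjusted p = 0.136) and the kinase Pdk1 at -0.56 ± 0.17 (edgeR adjusted p = 0.173). The kinase genes Pdk4 and Pdk1 and the phosphatase genes Pdpr and Pdp1 thus lay on the same side of 0. Of the 13 genes, 1 lay above 0, and the other kinase and phosphatase genes are not reported here. DESeq2 called Pdpr and Pdp1 lower, where it called 2.56% of all genes lower.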

How the data were processed

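RNA-seq was made from 6 samples, 3 per group. The authors deposited raw read counts per gene for mouse Ensembl identifiers. Build mm10 and, with no roles stated, DESeq2 1.12.4, StringTie 1.3.3b, bedtools 2.26.0, HISAT2 2.0, Trimmomatic 0.36 and FastQC 0.11.2 are named per the submitters' processing notes. The counting tool, annotation and strand setting were not stated. The lowest total of a gene over the samples was 28. Columns were matched to samples by treatment code and replicate number.

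Symbols (16260 genes), positions and longest transcripts (99.8% of tested genes) came from GENCODE M21 on GRCm38, the assembly of mm10. Under R 4.3.3, the main test was the quasi-likelihood F-test of edgeR 4.0.16, after filterByExpr and TMM scaling, on all 6 samples, no covariate, Benjamini-Hochberg adjusted over 16259 genes. SE is the log2 fold change over the root of F. Levels of a list are means of log2 CPM (prior count 2), centred per gene over the 6 samples. Alternatives were other scalings and filters, DESeq2 1.42.0, limma-voom (limma 3.58.1), a replicate block, a length offset (spline, 4 degrees of freedom), near copies summed and leaving out each sample. Values per sample are given for genes without group overlap, with an unadjusted p under 0.05 or the smallest p of their step, and for others chosen after their values were seen, as were the ratios between genes. Of other lists, named genes are among the 3 with the smallest p of their list or were named for their role, and some genes of these lists are not reported here. Members and lists were chosen with earlier results of these data known. Chi-square over its degrees of freedom was 65.9 to 181 between libraries of the same group and 56.6 to 338 between libraries of different groups. No library was thus a repeat sequencing of another. These values cannot tell whether any libraries came from the same RNA or mouse. On counts simulated for this comparison over 16223 genes, edgeR found 43.9% of the genes changed 2-fold and 91.9% of those changed 4-fold, and 4 of its 138 calls were false. Of the calls of DESeq2, 17 of 155 were false, and of those of limma-voom 5 of 141. The simulation drew genes independently from a common dispersion trend, without the length trend or the shifts between replicates seen here. These rates may therefore differ in the real data.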

Additional observations from a re-analysis of the deposited data

How the results depend on the processing

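No gene of the set passed under the other edgeR settings, and 2 passed with DESeq2 and 1 with limma-voom. Genes of the set below 0 numbered 21 to 30 under the other alternatives, but 17 with libraries scaled to Ckm, an alternative chosen after seeing the data, where the median was -0.0096. For the 132 other pathway genes tested, the count passing was 0, and 7 with DESeq2, 1 with limma-voom, 1 with library size alone and 0 to 1 on leaving out a sample. The 7 were all lower, where DESeq2 called 4.58% of all genes in either direction and 2.56% as lower. Of all genes, limma-voom called 1.22%. With library size alone the activation and shuttle median was -0.063 and its level difference -0.23. Of 33 genes, 22 kept their direction under all alternatives other than the scaling to Ckm, and 3 of these 22 reversed under it: Cpt1b was then at 0.082, Cpt2 at 0.11 and Decr1 at 0.050. With library size alone Cpt1a was at 0.017, Slc22a5 at 0.10, Acadvl at 0.073, Eci2 at 0.15 and Mlycd at 0.056. With limma-voom Slc22a5 was at 0.038 and Eci2 at 0.064. With the length offset Acaa2 was at -0.11, Hsd17b10 at -0.17, Eci1 at -0.14 and Acot13 at -0.093. The cause was not tested. Leaving out each sample in turn gave ranges of -0.26 to 0.048 for Slc22a5, -0.30 to 0.086 for Acadvl, -0.22 to 0.29 for Echs1, -0.073 to 0.27 for Acaa2, -0.045 to 0.33 for Hsd17b10, -0.091 to 0.30 for Eci1, -0.13 to 0.10 for Eci2, -0.41 to 0.062 for Etfa and -0.28 to 0.013 for Mlycd. With the replicate number as a block, 27 genes were below 0, none passed and Echs1 was at -0.035. Same-numbered samples did not deviate together (correlations -0.015, 0.0043 and -0.048), and different-numbered pairs lay between -0.149 and 0.141. With so few samples, these values cannot decide whether the numbers pair them. Ehhadh had the fewest counts of the set, and 3 samples per group limit the precision of every value.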

Other observations

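Citric acid cycle genes, which oxidise the acetyl-CoA that these routes deliver, lay below 0 in 15 of 19 cases (median -0.37 on the log2 scale). By edgeR 0 passed, with 3 lower and 0 higher at an unadjusted p under 0.05, and DESeq2 called 0. Among all genes, 48.3% lay below 0, and 9.39% were lower and 10.1% higher at that unadjusted p. DESeq2 called 4.58% of all genes. Per sample the list stood at 0.27, -0.17 and -0.72 in glycerol+melatonin and 0.19, 0.21 and 0.22 in glycerol. Sdha, the flavoprotein of succinate dehydrogenase, was at 689, 551 and 359.9 CPM in glycerol+melatonin and 800.5, 843 and 833 CPM in glycerol (-0.63 ± 0.24, edgeR adjusted p = 0.218). The transaminase Got2 was at -0.59 ± 0.25 and Dlst, a subunit of the oxoglutarate dehydrogenase complex, at -0.74 ± 0.32.

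Among 20 other mitochondrial acyl-CoA genes, 12 were below 0 and 0 passed by edgeR. Acadsb, a dehydrogenase of the isoleucine pathway, was at 11.3, 9.87 and 10.6 CPM in glycerol+melatonin and 72.8, 29.1 and 17.3 CPM in glycerol (-1.91 ± 0.46, edgeR adjusted p = 0.137). The glycerol samples spread over a wider range than the glycerol+melatonin samples. Acad10 was above 0 without overlap, at 8.66, 10.1 and 9.85 CPM in glycerol+melatonin and 6.20, 4.93 and 7.45 CPM in glycerol (0.63 ± 0.20, edgeR adjusted p = 0.182), and Etfbkmt, the methyltransferase of Etfb, was at -0.74 ± 0.29.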
